A study of Homo sapiens with 8 samples.

Results

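TAZ binding at 34 genes of DNA replication and mitosis was followed over the induction of an activated TAZ in MCF10A, a human line of mammary epithelium that is not transformed. The genes were fixed by name, as 34 of the 20033 protein-coding genes of the GENCODE annotation on chromosomes 1 to 22, X and Y. They fell into 13 replication genes, 15 mitosis genes and 6 regulators that act ahead of or across both phases. The cells carried a doxycycline (Dox)-inducible TAZ-4SA, a constitutively active form of the co-activator TAZ, in all 4 conditions. All grew in the same medium with EGF, insulin and horse serum. They received no Dox, or 0.05 µg/ml Dox for 24, 48 or 72 h. For each condition there were 1 TAZ ChIP library, 1 IgG library and 1 list of peaks, so no difference between times could be tested against replicates. No source used here says whether the line was 1 clone, and the lists do not separate the induced TAZ-4SA from the TAZ that the cells already had. The lists hold binding and not expression, so markers of mammary epithelium could not be checked.

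Cells copy their DNA once per cycle from origins. The origin recognition complex with CDC6 and CDT1 loads the MCM2 to MCM7 ring, and CDC45 and the GINS complex turn that ring into a moving helicase. Cyclin B with CDK1 then drives the cell into mitosis, where Aurora and Polo kinases, the spindle checkpoint and motor proteins divide the chromosomes. Many replication genes are switched on by E2F factors at the border of G1 and S. Many mitosis genes peak later, through a promoter element called the cell cycle genes homology region (CHR), which binds the DREAM and MuvB complexes with B-MYB (MYBL2) and FOXM1. TAZ itself does not bind DNA and reaches it above all through TEAD factors. TAZ and its relative YAP are known to promote proliferation of epithelial cells.

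A peak is a stretch where DNA recovered with the antibody piles up over the local background, and its fold enrichment is the ratio of both as the authors' peak caller gave it. Peaks were called promoter peaks of a gene when the summit was at most 3 kb from a transcription start site (TSS) of any of its transcripts. Since the lists give no read totals, depth was judged from the peaks. The lowest background of a list lay between 1.42 fragments at 24 h and 2.84 at 48 h. At that background the smallest fold that could be called was 4.01 without Dox and 4.14, 3.38 and 3.33 after 24, 48 and 72 h of Dox. The lists held 2431, 2469, 11767 and 38667 peaks in that order of time. CCN2, a matricellular protein and standard YAP/TAZ target, had no promoter peak without Dox and fold enrichments of 16.8, 19.9 and 37.9 at 24, 48 and 72 h. CCN1, another such target, had a promoter peak already without Dox, with 5.22, and 9.09, 16.42 and 38.75 at the later times.

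The first question was when TAZ peaks appeared at the promoters of the 34 genes. They did so almost only at 72 h. Of the 34 genes, 3 (8.82%) had a promoter peak without Dox, 0 had one after 24 h, 0 after 48 h and 32 (94.1%) after 72 h. The background over all protein-coding genes was 9.4% without Dox, then 2.55%, 9.09% and 58.4%. The share at 72 h thus lay above the background, and those at the other times near or below it. Among genes with a CpG-rich promoter, a class that holds most housekeeping genes, 24 of the 26 that belong to the 34 had a promoter peak at 72 h (92.3%), against 75.6% of all in the class. At the 3 earlier times 12.8%, 3.11% and 10.3% of the class had one. The class was defined by GC content and CpG frequency in 300 bases around the start. Of the 41 promoter peaks of the 34 genes at 72 h, 2 overlapped a peak without Dox, 0 overlapped one at 24 h and 0 one at 48 h. Over the 13712 promoter peaks of all protein-coding genes at 72 h these shares were 10.7%, 3.34% and 13.6%. The smallest fold callable over that lowest background at 48 h lay below the fold that each of the 32 genes reached at 72 h, and that of 24 h below the fold of 27 of them. The lists give no fold where no peak was called, and folds changed with time. The CCN1 promoter had 9.09, 16.42 and 38.75 at 24, 48 and 72 h. Whether weaker peaks at the 34 genes went uncalled at 24 and 48 h was therefore not tested.

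**Figure D1:**
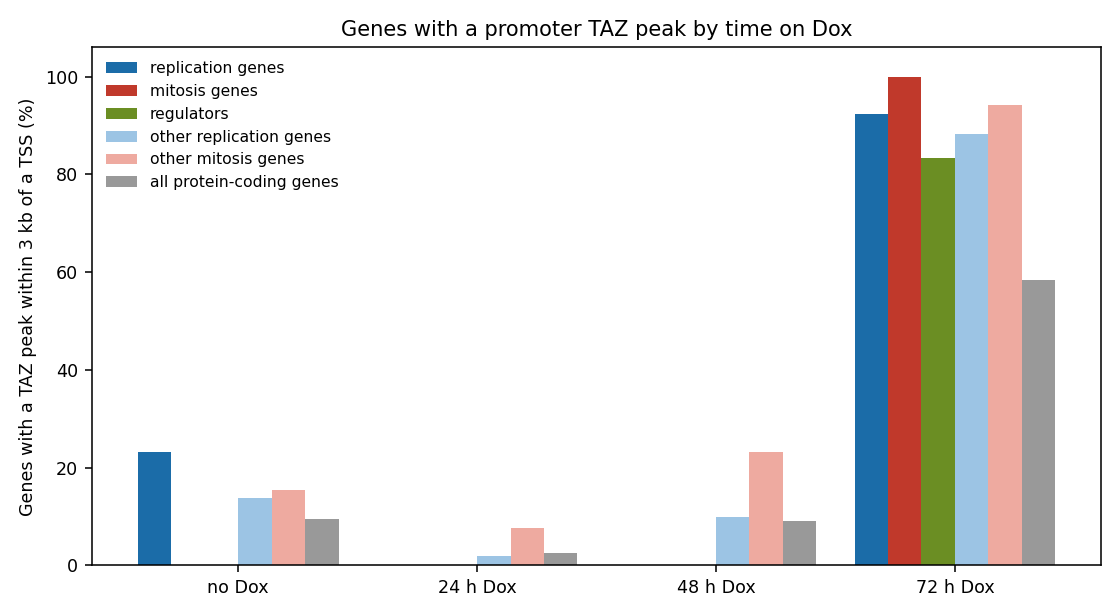
Share of genes (%) with a TAZ peak within 3 kb of a TSS, by time on Dox, with bars for the replication genes, the mitosis genes, the regulators, the wider replication and mitosis lists and all protein-coding genes. At 72 h the 3 groups stood at 92.3%, 100% and 83.3% against 58.4% of all genes, and at 24 and 48 h at 0.

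Replication and mitosis genes were then compared. At 72 h promoter peaks were called at 12 of the 13 replication genes (92.3%), 15 of the 15 mitosis genes (100%) and 5 of the 6 regulators (83.3%). Without Dox, 3 replication genes had one, CDT1, GINS1 and MCM7, and 0 mitosis genes and 0 regulators did. Of these 3 peaks, 0, 0 and 2 overlapped a peak at 24, 48 and 72 h. Over the 1554 promoter peaks without Dox of all protein-coding genes, the shares were 11.3%, 17.5% and 95.4%. A gap at 24 and 48 h was thus common over the whole list and not particular to these genes. Both groups were alike at 24 and 48 h, with 0 genes each. The strongest promoter peak at 72 h had a median fold enrichment of 7.72 over the replication genes (range 3.68 to 16.2), 6.81 over the mitosis genes (3.45 to 15.5) and 4.83 over the regulators (3.68 to 8.25). The ranges of the replication and mitosis genes overlapped almost wholly. The median over all 11700 genes with a promoter peak was 7.20, with quartiles of 5.25 and 10.8. Of the 32 genes with a peak, 12 were below the lower of these quartiles and 8 above the upper one, and of the 5 regulators 4 were below the lower one.

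**Figure D2:**
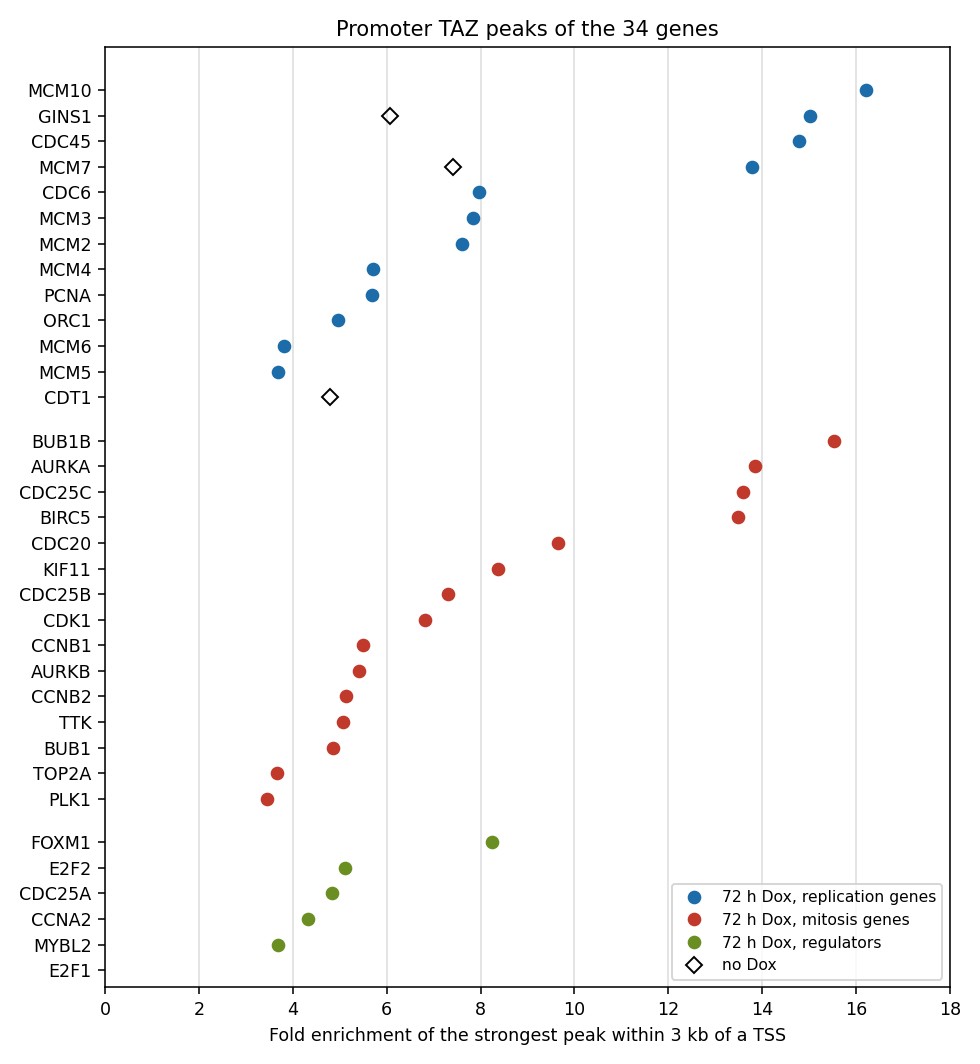
Fold enrichment of the strongest peak within 3 kb of a TSS for each of the 34 genes, with filled points for 72 h of Dox and open diamonds for no Dox. MCM10 with 16.2 and BUB1B with 15.5 led the replication and mitosis genes, and CDT1 and E2F1 had no point at 72 h.

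Among the factors that license origins, CDC6 and ORC1 gained promoter peaks at 72 h, and CDT1 did not. CDC6, which loads the MCM ring, had a fold enrichment of 7.97 at 72 h, from 29 fragments at the summit (95% Poisson interval 19.4 to 41.7). ORC1, the largest subunit of the origin recognition complex, had 4.97. Its summit lay 117 bp from the TSS of ORC1 and 62 bp from that of PRPF38A, a splicing factor gene on the opposite side. CDT1, the partner of CDC6, was the only one of the 34 with a promoter peak without Dox and none later. Its peak there (chr16:88803436-88803896) had a fold of 4.80 from 22 fragments (13.8 to 33.3), with the summit 195 bp upstream of the TSS. At 72 h the nearest summit lay 6294 bp from CDT1, at APRT, the adenine salvage enzyme, with 5.24.

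All 6 subunits of the MCM ring and MCM10 had a promoter peak at 72 h, over a wide range of fold. MCM10, a scaffold of the starting helicase, led all 34 genes with 16.2 at 72 h (chr10:13161149-13161934), from 62 fragments (47.5 to 79.5). MCM7 had 7.42 without Dox, no promoter peak at 24 and 48 h, and 13.8 at 72 h. Its pileup was 24 fragments (15.4 to 35.7) without Dox and 78 (61.7 to 97.4) at 72 h. The MCM7 summits, at 11 and 32 bp from an internal TSS, lay in an exon of the gene. MCM3 had 7.83, MCM2 7.61 and MCM4 5.70 at 72 h. MCM6 with 3.82 and MCM5 with 3.68 were the weakest of the replication genes, from 22 fragments (13.8 to 33.3) and 19 (11.4 to 29.7). The peaks of MCM2 and MCM4 were near genes that share their promoter region, TPRA1 and PRKDC, yet the MCM start was the nearer one for both summits.

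The remaining helicase and fork genes were called at 72 h as well. CDC45 had 14.8, from 76 fragments (59.9 to 95.1), 80 bp from its TSS (chr22:19478986-19480169), and a weaker second peak with 3.70. GINS1, also called PSF1, had 6.06 without Dox, from 18 fragments, no promoter peak at 24 and 48 h, and 15.02 at 72 h, from 94 fragments (76.0 to 115). A second promoter peak at 72 h had 4.80 and was nearer to ABHD12, and a peak at 48 h with 5.10 lay in an intron beyond 3 kb (chr20:25437034-25437447). The peak without Dox and the strongest at 72 h (chr20:25406900-25408039 and chr20:25407054-25408158) covered the same start. PCNA, the sliding clamp of the DNA polymerases, had 5.68 and 5.49 at different starts at 72 h. The first of these summits was nearer to CDS2, 85 bp away, than to PCNA, 168 bp away.

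Promoter sequences of 4 replication genes show what lay under or beside these summits. They run from 250 bases before to 50 after the RefSeq start on GRCh38.p14, on the strand of the gene, so that the start follows base 250. GINS1 (chr20:25407423-25407722, plus strand) and CDT1 (chr16:88803539-88803838, plus strand) are shown because they were called without Dox. MCM6 (chr2:135876394-135876693, minus strand) has the most E2F words, and MCM10 (chr10:13161308-13161607, plus strand) the strongest peak. Capitals mark E2F, CHR and TEAD words, searched on both strands as TTTCCCGC, TTTGGCGC or TTTCGCGC for E2F, TTTGAA or TTCGAA for CHR and ACATTCC or GCATTCC for TEAD.
GINS1: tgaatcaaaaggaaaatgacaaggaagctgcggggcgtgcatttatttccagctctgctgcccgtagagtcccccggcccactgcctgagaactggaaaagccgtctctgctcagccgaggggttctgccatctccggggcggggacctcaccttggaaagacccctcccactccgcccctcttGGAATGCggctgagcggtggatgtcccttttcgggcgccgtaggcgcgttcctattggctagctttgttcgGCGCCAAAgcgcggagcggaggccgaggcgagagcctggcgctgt
CDT1: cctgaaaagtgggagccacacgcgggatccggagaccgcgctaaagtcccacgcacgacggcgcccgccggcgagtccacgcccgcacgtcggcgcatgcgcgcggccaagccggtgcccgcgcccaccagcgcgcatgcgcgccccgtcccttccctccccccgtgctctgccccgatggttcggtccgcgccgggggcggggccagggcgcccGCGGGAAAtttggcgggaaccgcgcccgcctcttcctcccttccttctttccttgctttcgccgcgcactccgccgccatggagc
MCM6: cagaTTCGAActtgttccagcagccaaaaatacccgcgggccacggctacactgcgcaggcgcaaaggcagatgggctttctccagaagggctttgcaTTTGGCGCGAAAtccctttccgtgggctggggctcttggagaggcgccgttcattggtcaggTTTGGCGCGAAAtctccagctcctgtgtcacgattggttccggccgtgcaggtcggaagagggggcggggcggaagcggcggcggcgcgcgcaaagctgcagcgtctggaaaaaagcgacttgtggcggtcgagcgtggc
MCM10: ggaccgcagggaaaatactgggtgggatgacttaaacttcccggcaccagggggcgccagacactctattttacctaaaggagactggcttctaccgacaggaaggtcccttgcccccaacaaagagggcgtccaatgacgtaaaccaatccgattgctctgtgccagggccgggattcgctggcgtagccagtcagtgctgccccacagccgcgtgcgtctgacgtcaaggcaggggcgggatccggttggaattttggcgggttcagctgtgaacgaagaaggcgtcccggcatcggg
In GINS1 the summits fell on base 186 without Dox and base 175 at 72 h, and the only TEAD word, in reverse orientation, on bases 185 to 191. Its E2F word stood on bases 256 to 263. In CDT1 the summit without Dox fell on base 56 and the E2F word on bases 216 to 223. MCM6 held 4 E2F words, in 2 overlapping pairs on bases 99 to 110 and 161 to 172, and a CHR word on bases 5 to 10, while its summit lay on base 330, past the window. MCM10 held none of these words, and its summit fell on base 181.

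The mitosis genes were called at 72 h and at no earlier time. The entry kinase and its regulators had moderate folds, apart from CDC25C. CDK1 had 6.81 and its partners CCNB1 and CCNB2 had 5.49 and 5.14, from 23 (14.6 to 34.5), 24 (15.4 to 35.7) and 27 (17.8 to 39.3) fragments. CDC25B, a phosphatase that activates CDK1, had 3 promoter peaks with 7.30, 5.78 and 5.44. The related CDC25C had 13.6, from 122 fragments (101.3 to 145.7), but this summit lay 495 bp from CDC25C and 185 bp from FAM53C. A second CDC25C peak with 3.99 was also nearer to FAM53C.

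Among the mitotic kinases, AURKA stood out by fold and PLK1 was the weakest of the 32 genes with a promoter peak. AURKA, which matures centrosomes and the spindle, had 13.9 at 72 h, from 62 fragments. Its summit was 231 bp from AURKA and 46 bp from CSTF1, a cleavage stimulation factor gene that starts on the other strand. AURKB, the kinase of the chromosomal passenger complex, had 5.41 with its summit 1 bp from a TSS. PLK1, the main Polo kinase, had 3.45 from 28 fragments (18.6 to 40.5) over a local background of 7.40. BIRC5 (survivin), the passenger subunit beside AURKB, had 13.5 from 66 fragments (51.0 to 84.0), 33 bp upstream of its TSS (chr17:78213949-78214771).

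The genes of the spindle checkpoint and the spindle spread over the same range. BUB1B (BubR1), a checkpoint kinase-like protein, led the mitosis genes with 15.5, from 78 fragments (61.7 to 97.4), 57 bp upstream of its TSS (chr15:40160711-40162005). Its partners BUB1 and TTK (MPS1) had 4.85 and 5.06. CDC20, the activator of the anaphase-promoting complex, had 9.65 from 62 fragments, with the summit 346 bp upstream, and a second peak with 4.97. KIF11 (Eg5), the motor that separates spindle poles, had 8.36 at a summit 131 bp from IDE and farther from a start of KIF11, and 7.76 and 3.46 at its own starts. TOP2A, which untangles sister chromosomes, had 3.66 from 20 fragments (12.2 to 30.9).

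Promoters of 3 mitosis genes are given in the same way, BUB1B (chr15:40160819-40161118, plus strand) for the strongest peak, TOP2A (chr17:40417847-40418146, minus strand) for a weak one and CDC20 (chr1:43358731-43359030, plus strand) for one beside the start.
BUB1B: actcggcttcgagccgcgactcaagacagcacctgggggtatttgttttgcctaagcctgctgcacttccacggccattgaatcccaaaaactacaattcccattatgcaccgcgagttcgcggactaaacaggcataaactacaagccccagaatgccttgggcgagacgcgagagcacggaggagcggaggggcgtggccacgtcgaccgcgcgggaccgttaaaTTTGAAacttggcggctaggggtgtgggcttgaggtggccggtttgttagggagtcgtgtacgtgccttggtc
TOP2A: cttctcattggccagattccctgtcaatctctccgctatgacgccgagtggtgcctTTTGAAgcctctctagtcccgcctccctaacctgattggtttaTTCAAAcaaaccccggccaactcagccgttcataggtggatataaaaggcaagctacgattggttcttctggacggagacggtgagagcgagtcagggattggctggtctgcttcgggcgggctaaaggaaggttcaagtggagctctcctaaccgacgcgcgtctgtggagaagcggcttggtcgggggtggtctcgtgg
CDC20: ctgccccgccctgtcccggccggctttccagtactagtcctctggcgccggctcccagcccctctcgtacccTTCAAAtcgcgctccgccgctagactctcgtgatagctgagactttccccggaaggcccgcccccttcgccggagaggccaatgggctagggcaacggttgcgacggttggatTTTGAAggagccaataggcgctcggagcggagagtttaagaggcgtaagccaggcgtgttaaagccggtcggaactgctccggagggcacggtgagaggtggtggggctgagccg
BUB1B had 1 CHR word on bases 228 to 233, and its summit fell upstream of it, on base 148. TOP2A had CHR words on bases 57 to 62 and 100 to 105, with the summit on base 185. CDC20 had them on bases 73 to 78 and 186 to 191, and its summit lay 346 bp upstream of the start, outside the window. None of the 3 held an E2F or TEAD word.

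**Figure D3:**
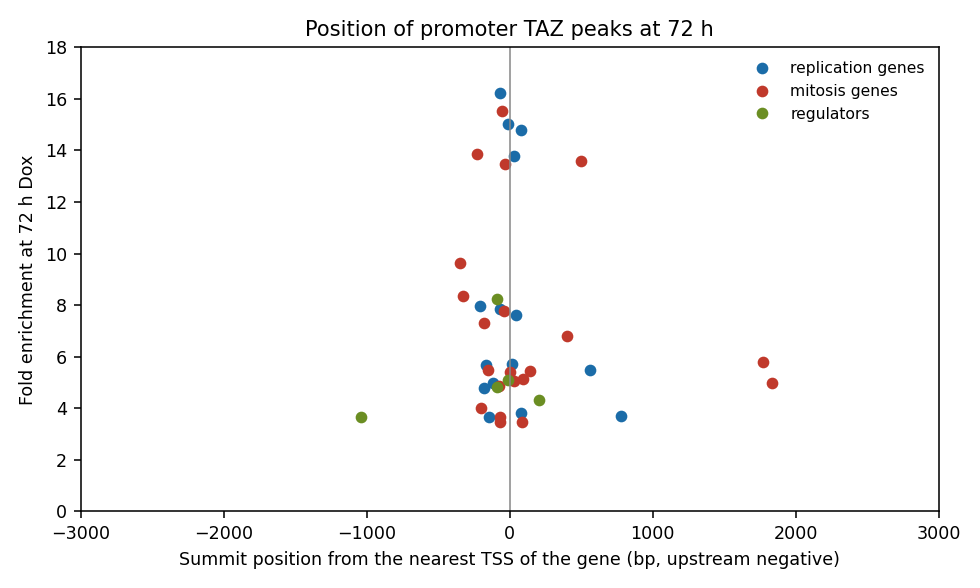
Fold enrichment at 72 h of each promoter peak of the 34 genes (vertical axis) against the position of its summit from the nearest TSS of the gene in bp (horizontal axis, upstream negative), with 1 point per gene and peak. The strongest peaks stood close to the start, and 31 of the 32 genes had their strongest summit within 500 bp.

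Of the 6 regulators, FOXM1 had the strongest promoter peak and E2F1 had none in any list. FOXM1, a transcription factor of late cell cycle genes, had 8.25 at 72 h, from 34 fragments (23.6 to 47.5). Its summit was 89 bp from FOXM1 and 40 bp from RHNO1, a gene of the DNA damage response that shares the promoter. E2F2 had 5.11, CDC25A, the phosphatase of CDK2, had 4.83, and CCNA2, cyclin A2, had 4.33. MYBL2 had 3.68 from 12 fragments (6.20 to 21.0), 1040 bp upstream of its TSS, and was the only one of the 32 whose strongest summit lay beyond 500 bp. The E2F1 promoter (chr20:33686336-33686635, minus strand), shown because it was never called, holds an E2F word on bases 231 to 238.
E2F1: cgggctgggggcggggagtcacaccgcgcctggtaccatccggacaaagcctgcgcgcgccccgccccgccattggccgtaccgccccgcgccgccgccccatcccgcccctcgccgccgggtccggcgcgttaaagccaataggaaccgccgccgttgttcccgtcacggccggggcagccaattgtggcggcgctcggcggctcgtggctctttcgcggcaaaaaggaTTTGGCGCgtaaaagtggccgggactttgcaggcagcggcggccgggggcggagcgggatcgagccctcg
The nearest summits to E2F1 lay 22564 bp away without Dox, and 47682, 46354 and 11895 bp away after 24, 48 and 72 h.

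The summits stood close to a start in both replication and mitosis genes. The median distance of the strongest promoter summit from the nearest TSS was 74.5 bp over the 12 replication genes and 89 bp over the 15 mitosis genes, and 83 bp over all 32. Over all genes with a promoter peak at 72 h the median distance of the nearest summit was 89 bp. The median width of the strongest peaks was 1048 bp at replication genes and 1004 bp at mitosis genes. Over all peaks of the list it was 821 bp, but that set is not matched. It includes distal peaks and is not limited to the strongest peak of a gene. For 4 of the 32 genes (ORC1, AURKA, CDC25C and FOXM1) each promoter summit lay nearer to the TSS of another protein-coding gene, so at these shared starts the gene that a peak belongs to could not be told apart. MCM7, CDC45, BUB1B and CDC25B also had a start of another protein-coding gene within 1 kb (AP4M1, UFD1, PAK6 and CENPB). Their own start was the nearest to their strongest summit. The promoter summits farthest from a start were at 1837 bp, in CDC20, and 1768 bp, in CDC25B. The nearest beyond 3 kb was a peak of CDC25B at 48 h with 3.76, at 4022 bp.

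The promoters of the replication and the mitosis genes were next searched for sequence words of cell cycle factors. RefSeq promoter sequences were at hand for 28 of the 34 genes. Those of MCM4, MCM5, AURKA, BIRC5, TTK and FOXM1 were not used here. An E2F word lay in 8 of 11 replication promoters (72.7%) and 1 of 12 mitosis promoters (8.33%), against 3.83% of 15351 protein-coding promoters of the same length. A CHR word lay in 1 of 11 replication promoters (9.09%) and 8 of 12 mitosis promoters (66.7%), against 13.5% of all. The CCAAT box of NF-Y was found in 9 of 11 (81.8%) and 9 of 12 (75%), against 36.6%. In MCM7, 1 CCAAT box overlapped an E2F word, and no other pair of these motifs overlapped in the 28 promoters. The wider lists had the same split, with an E2F word in 31.8% of 44 other replication promoters and 8.89% of 45 other mitosis promoters, and a CHR word in 4.55% and 82.2%. These lists were drawn up from general knowledge of the cell cycle, and that E2F and CHR elements mark the 2 groups is known from other work.

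**Figure D4:**
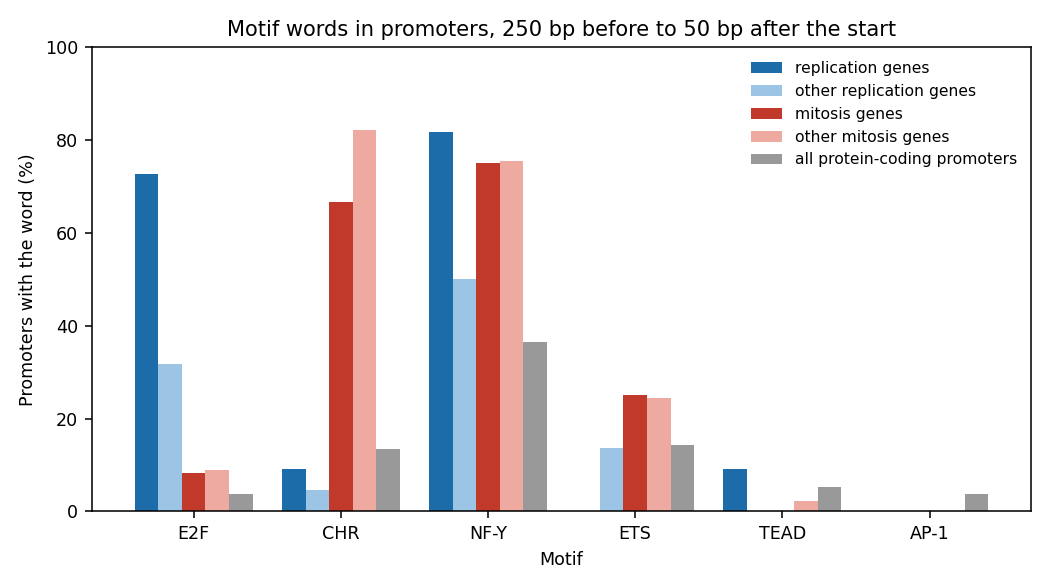
Share of promoters (%) that hold a word of each motif on either strand, with bars for replication genes, other replication genes, mitosis genes, other mitosis genes and all protein-coding promoters. E2F words stood at 72.7% in replication and 8.33% in mitosis genes and CHR words at 9.09% and 66.7%, while TEAD words stood at 9.09% and 0.

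TEAD words lay under a minority of promoter summits, both at the 34 genes and over all protein-coding genes. Within 100 bp of a summit, 4 of the 41 promoter peaks at 72 h held one (9.76%), against 15.7% of all 13712 promoter peaks of that list. They were the peaks of GINS1, FOXM1 and CDC20 near the start and the peak of CDC25B 1768 bp downstream. An AP-1 word (TGACTCA or TGAGTCA), the site of FOS and JUN factors, lay under 0 of the 41, against 7.91% of all promoter peaks. E2F words lay under 8 of the 41 (19.5%, against 2.06%), CHR words under 9 (22%, against 8.29%) and CCAAT under 21 (51.2%, against 20.4%). The ETS word CCGGAAG lay under 3 (7.32%, against 11.5%). By group, E2F words lay under 5 of 15 replication peaks and 1 of 21 mitosis peaks, and CHR words under 1 of 15 and 8 of 21. The members were chosen as cell cycle genes, so these shares describe their promoters and not a property of TAZ peaks.

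The surroundings of the genes were asked for next, out to 100 kb. Peaks around the 34 genes were few until 48 h and then many, mostly away from their own promoters. They numbered 17 without Dox and 7, 40 and 232 after 24, 48 and 72 h, or 0.699%, 0.284%, 0.34% and 0.6% of the lists. Genes with at least 1 such peak numbered 11 (32.4%), 7 (20.6%), 20 (58.8%) and 34 (100%), against a background of 34.3%, 21.6%, 56.4% and 90.1% of all protein-coding genes. In the CpG-rich class the background was 38.6%, 23.3%, 59.6% and 94.9%. The shares thus lay close to the background at the first 3 times. By group, 6 of 13 replication genes and 3 of 15 mitosis genes had a peak without Dox, 2 and 3 at 24 h, and 6 (46.2%) and 11 (73.3%) at 48 h. At 72 h a replication gene had a median of 6 peaks (range 2 to 12) and a mitosis gene 5 (2 to 21), and the median over all protein-coding genes was 5. CDC6 and TOP2A, neighbours on chromosome 17, shared 1 peak at each of the first 3 times and 6 at 72 h.

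**Figure D5:**
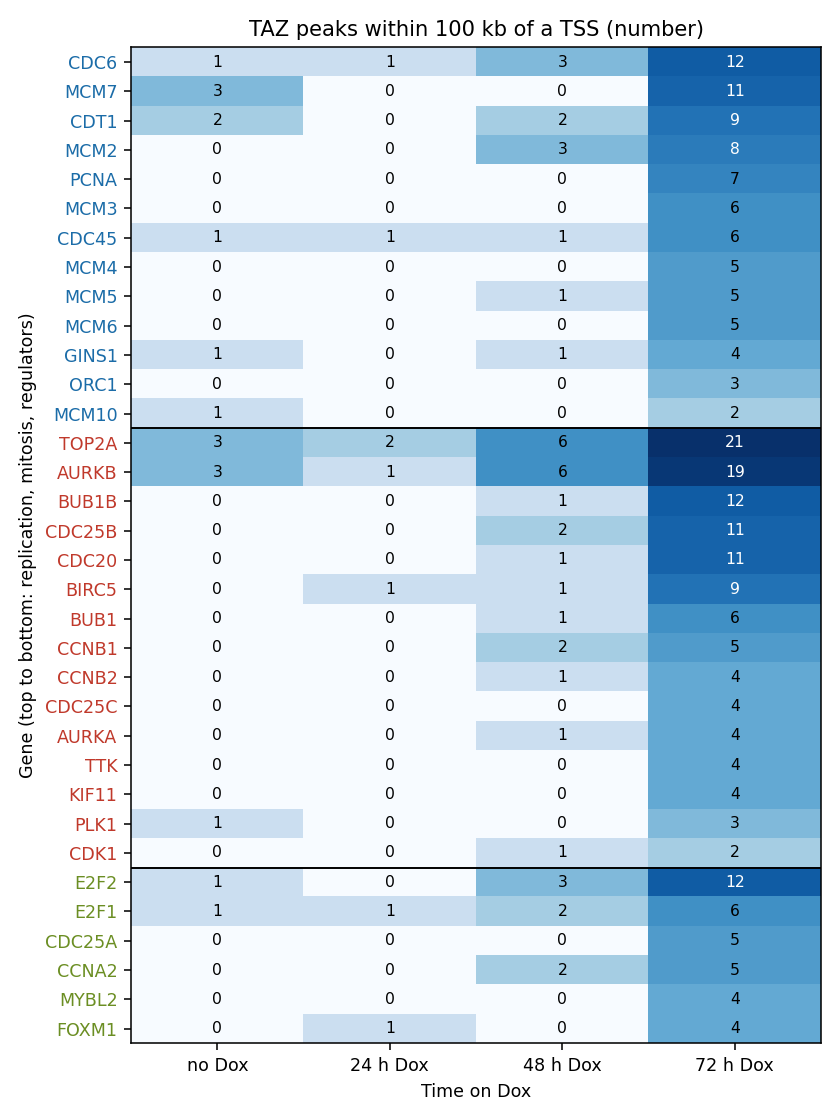
Number of TAZ peaks with a summit within 100 kb of a TSS of each gene (rows, replication, mitosis and regulator genes from top to bottom) at each time (columns), with darker blue for more peaks. TOP2A with 21 and AURKB with 19 had the most at 72 h, and MCM10 and CDK1 with 2 the fewest.

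Many of these outer peaks were at the start of another gene. Of the outer peaks, those beyond 3 kb from a TSS of the 34 genes, 10 of 14 without Dox lay within 3 kb of a TSS of another protein-coding gene, as did 6 of 7, 15 of 40 and 100 of 191 after 24, 48 and 72 h. For comparison, the lists held 1554, 467, 1979 and 13712 promoter peaks of all protein-coding genes in order of time. Peaks outside every promoter numbered 866, 1980, 9761 and 24897. The strongest outer peak without Dox, with 18.4, lay 53 bp from MRPL40, a mitochondrial ribosomal protein gene near CDC45. This start had 7.34 after 24 h, no call after 48 h and 19.3 after 72 h. The peak 23 to 111 bp from a start of RARA, a retinoic acid receptor gene between CDC6 and TOP2A, was called at all 4 times, with 5.08, 4.74, 6.69 and 22.4. In the neighbourhood of BIRC5 the promoter of TK1, the S phase thymidine kinase, had 8.08, 7.17 and 21.2 after 24, 48 and 72 h. The strongest outer peak of all had 48.0 at 72 h and 16.1 at 24 h, in the neighbourhood of FOXM1, with its summit 5 bp from a TSS of TEAD4, which encodes a partner of TAZ, and with a TEAD word. It was not called without Dox or at 48 h.

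Other outer peaks stood more than 1 kb from any protein-coding start, in exons, in introns or between genes, several of them with a TEAD word under the summit. Those described in PER1 and ZNF341 were within 3 kb of a start of these genes, and the rest farther away. CDC6 had one 5953 bp upstream of its TSS in an exon of WIPF2 (chr17:40281518-40282455), with 11.7 at 48 h and 27.9 at 72 h and a TEAD word. CDC6 was the gene with the nearest TSS to that peak. AURKB had one 52305 bp downstream in an intron of the clock gene PER1, called at all 4 times with 5.05, 7.73, 7.76 and 25.9. TOP2A had one in an intron of TNS4, a focal adhesion gene, also at all 4 times, with 6.50, 8.53, 6.49 and 21.8. CCNA2 had one 38728 bp downstream with 6.93 at 48 h and 23.4 at 72 h, CDC45 one 38519 bp downstream with 10.1 and 25.3, and AURKA one in CASS4 with 8.84 and 25.3. These 5 held a TEAD word. A peak in an intron of ZNF341, in the neighbourhood of E2F1, had 7.87, 11.9 and 36.3 after 24, 48 and 72 h without one. Assignment by distance says nothing about the gene on which such a peak acts.

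TEAD words within 100 bp of the summit were counted at the outer peaks as well. They lay under 4 of 14 outer peaks without Dox (28.6%), where 1 of the 3 promoter peaks held one. They lay under 3 of 7 outer peaks of 24 h and 17 of 40 of 48 h (42.5%), times without promoter peaks of the 34 genes. At 72 h they lay under 43 of 191 outer peaks (22.5%), and under 9.76% of the promoter peaks. Over peaks outside every promoter the shares were 29.3%, 53.3%, 42.2% and 34.3% in order of time. That set is not matched to the outer peaks, many of which lay at promoters of other genes. Among the 191 outer peaks of 72 h, 13 (6.81%) coincided in part with a peak without Dox, 7 (3.66%) with a 24 h peak and 38 (19.9%) with a 48 h peak.

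Most genes of the wider lists of both processes had a promoter peak at 72 h, and some had one at 24 and 48 h. Of 51 other replication genes, 7 (13.7%) had a promoter peak without Dox, 1 (1.96%) after 24 h, 5 (9.8%) after 48 h and 45 (88.2%) after 72 h. Of 52 other mitosis genes the counts were 8 (15.4%), 4 (7.69%), 12 (23.1%) and 49 (94.2%). The background over all protein-coding genes was 9.4%, 2.55%, 9.09% and 58.4%, and 75.6% at 72 h in the CpG-rich class. At 24 and 48 h the other replication genes lay near this background and the other mitosis genes above it. The strongest at 72 h among the replication genes were POLA2, a subunit of polymerase alpha, with 23.1, TK1 with 21.2, RNASEH2A with 16.1, the maintenance methylation factor UHRF1 with 15.5 and the ribonucleotide reductase subunit RRM1 with 13.2. Among the mitosis genes they were CDCA3 with 49.6, the condensin subunit NCAPD2 with 32.1, the CDK partner CKS1B with 29.7, the motor gene KIF23 with 17.9 and the spindle gene ASPM with 17.3. Apart from TK1, it was not examined whether a start of another gene lay nearer to these summits. CKS1B was called at all 4 times, with 8.57, 7.67, 13.3 and 29.7, as were ECT2 and CIT, both genes of cytokinesis. Without a promoter peak at 72 h were 6 other replication genes (ORC5, GINS2, GINS4, POLE2, RFC5 and CHAF1B) and 3 other mitosis genes (SPC25, KIF4A and CCNF).

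The genes of the G1 phase and the known TAZ targets were set beside the 34 genes. Of 18 G1 cyclins, CDKs and inhibitors, 2 had a promoter peak without Dox, and 1, 4 and 14 (77.8%) after 24, 48 and 72 h. Of 22 genes of a YAP/TAZ target signature, 9 had one without Dox, and 9, 14 and 21 (95.5%) after 24, 48 and 72 h. The median of their strongest promoter folds at 72 h was 6.26 for the 34 genes, 9.34 for the G1 genes and 20.1 for the signature. Over all protein-coding genes the share with a promoter peak was 9.4% without Dox, then 2.55%, 9.09% and 58.4%. The 34 genes thus had promoter calls at 72 h about as often as the signature, with lower folds. At 24 and 48 h they had 0 calls, at background shares under which few of 34 genes would have one. The signature had 40.9% and 63.6% at these times, and 40.9% already without Dox.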

How the data were processed

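TAZ ChIP-seq libraries were grouped by their titles, with 1 TAZ and 1 IgG library at each of 4 conditions. Per the study's methods and the submitters' notes, reads were trimmed, mapped to hg38 with BWA, and MACS2 called the peaks (false discovery rate 0.01). Versions and the use of IgG as control: not given in the sources used here. The deposited lists hold the fold enrichment at the summit, a ratio to which MACS2 adds 1 above and below. Other deposited columns are the p-value and the q-value, each as −log10, and the summit offset. No value of another series was used.

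Each list is named in the labels of both libraries of its condition and was taken as that of the TAZ library. Coordinates are 1-based on hg38, and the 55334 peaks lay within the sequences of the reference, 0 outside. Genes and TSS came from GENCODE version 44, and promoters of 300 bases from RefSeq (GRCh38.p14). A promoter called CpG-rich had at least 50% GC and an observed over expected CpG of at least 0.6. Pileup and background at each summit were solved from the fold and the Poisson p-value, which returned 100% of the p-values within 0.003 on the −log10 scale. Intervals are exact 95% Poisson intervals of the pileup and cover counting error only. With 1 library a time no test was run, and counts are set beside those over all protein-coding genes. Steps were tested on simulated data and run with Python 3.11.15, pandas 2.3.3 and scipy 1.17.1. The members, the lists and the comparisons were chosen with earlier results of these data known. All 34 members could be named, with the 5 strongest of each wider list, CCN1, CCN2, and neighbours of described summits. ECT2, CIT and genes named for lacking a peak were chosen after their values were seen. The alternatives were a window of 1 kb, canonical transcripts, interval overlap, a q of 1e-05, and thinning of all lists to 1 coverage and 1 threshold.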

Additional observations from a re-analysis of the deposited data

How the results depend on the processing

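No paired analysis was possible because each group had 1 library and no result came from a test. Of 104 alternative values, 99 stayed within 1.5 times the reported count or within its binomial interval. Many of these were counts of 0 at 24 or 48 h under settings that only remove calls, so they could not move. The share of promoter peaks without Dox that held a TEAD word went from 33.3% to 66.7% with 250 bp on each side. It counted as unmoved because its interval rests on 3 peaks. The same share at 72 h, over 41 peaks, went from 9.76% to 14.6%. The 32 genes with a promoter peak at 72 h became 31 with a window of 1 kb or a q of 1e-05 (without MYBL2), 30 after thinning all lists to 1 coverage and a −log10 p of 5.27 (without MCM5 and MYBL2), and 28 when the nearest protein-coding TSS had to be that of the gene. The last of these was added after seeing the data. The counts of 0 at 24 and 48 h could not rise under these alternatives, which only remove calls. Interval overlap in place of the summit could add calls, and under it these counts stayed 0. After thinning, 55.2% of all protein-coding genes had a promoter peak at 72 h. With a window of 50 kb the peaks around the genes numbered 10 without Dox and 4, 25 and 140 after 24, 48 and 72 h, fewer by construction. Of the 3 promoter peaks without Dox, 2 overlapped a peak at 72 h, and 1 did so by 50% of both intervals. Single libraries, weak peaks of about 20 fragments and shared starts limit what can be said of one gene.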
